A study of Mus musculus with 6 samples.

Results

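The genes described here encode 10 surface proteins by which mesenchymal progenitor and stromal cells are commonly recognised. They were taken by gene symbol: Thy1, Nt5e, Eng, Cd44, Mcam, Alcam, Ly6a, Pdgfra, Pdgfrb and Lepr. All 10 were among the 35976 genes of the count table, and all 10 passed the filter on low counts that left 13761 genes. The rule uses the names of the genes only.

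The libraries came from chondrocytes of hind limb articular cartilage of embryonic day 18.5 mice (C57BL/6 x 129S4/SvJae), expanded as a monolayer on plastic over 16 population doublings. Both groups received doxycycline at 2 µg/ml, which induces an H3.3 transgene. In H3K9M cells the transgene has methionine in place of lysine at residue 9 of the histone, and the labels give methylation of that residue as suppressed. In H3WT cells, the controls, the induced transgene is wild-type H3.3, so both groups carry an extra source of H3.3. There were 3 libraries of each, H3K9M replicates 1, 3 and 5 and H3WT replicates 1, 2 and 4. The labels do not say whether replicates came from separate embryos, so the p-values measure the spread between these libraries, which may in part be technical. The promoter that drives the transgene is not given in the sources used here.

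Chondrocytes that divide on plastic lose features of cartilage cells and take on those of fibroblast-like and progenitor-like cells. Surface antigens are used to follow this change, since cultured mesenchymal stromal cells are defined in part by Thy1 (CD90), Nt5e (CD73) and Eng (CD105), together with the absence of blood antigens. In mice, Ly6a (Sca1) and Pdgfra mark mesenchymal progenitors of several tissues, Lepr marks stromal cells of adult bone marrow, and Mcam (CD146) and Pdgfrb mark cells around vessels. Skeletal stem cells of the mouse growth plate have in contrast been isolated as cells with integrin alpha V and CD200 that lack Thy1, CD105 and the 6C3 antigen. The comparison asked which transcripts differ when H3K9 methylation is suppressed during expansion.

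Total counts ran from 15113675 to 19606082 per library, and counts of the 10 genes from 41 (Mcam in H3K9M replicate 3) to 20445 (Cd44 in the same library). Values below are CPM, read counts relative to the size of each library, after TMM scaling. The first principal component of all tested genes held 35.5% of the variance and did not follow the groups. H3K9M replicate 3 (51.0) scored closest to H3WT replicate 2 (49.1) on it, opposite H3WT replicates 1 (-56.2) and 4 (-51.5). No replicate pair was a repeated library, since a chi-square over genes, divided by its degrees of freedom, was 26.5 to 114.4 within groups. All 10 chondrocyte markers were detected, with Col2a1, Acan and Sox9 in every library. Their summed level, most of it from Col2a1, was 6096 to 9860 CPM in H3K9M and 6030 to 16855 CPM in H3WT. The fitted value of 10 of these 10 was lower in H3K9M, where 6934 of the 13761 tested genes were, with a median log2 fold change of -1.06, although 0 passed adjustment with edgeR and the groups overlapped for each. Without H3WT replicate 2 it was 8 of 10, with a median of -0.22. Of the markers of other cells that share these surface antigens, 4 of 9 endothelial genes (Cdh5, Tie1, Emcn and Cldn5) and 6 of 12 blood genes (Ptprc and Itgam among them) were at 0 in every library. The 3 blood genes tested, Cd14, Cd68 and Csf1r, reached 9.70, 12.8 and 3.71 CPM. All 3 had higher fitted values in H3K9M (median log2 fold change 0.72), and 0 passed adjustment with edgeR. In RNA from a mixed culture, fewer cells of a type and less RNA per cell cannot be told apart.

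None of the 10 genes passed an adjusted p of 0.05 (edgeR quasi-likelihood test, Benjamini-Hochberg adjustment over all tested genes), where 0% of the 13761 genes did. At an unadjusted p under 0.05 there was 1 of 10, Eng, against 12.2% of all tested genes. The normalised values of the groups did not overlap for 1 of 10, again Eng, against 19.4% of all tested genes. Both shares lie near or below the background. The fitted value was higher in H3K9M for 6 of 10, where 49.6% of all tested genes were higher, and lower for 4, with a median log2 fold change of 0.05 against -0.003 over all tested genes. A fitted difference of at least 2-fold was seen in 1 of 10, Lepr, against 9.3% of all tested genes. The DESeq2 Wald test called 1 of 10, Eng, against 2.83% of all tested genes, and limma-voom called 0.

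**Figure D1:**
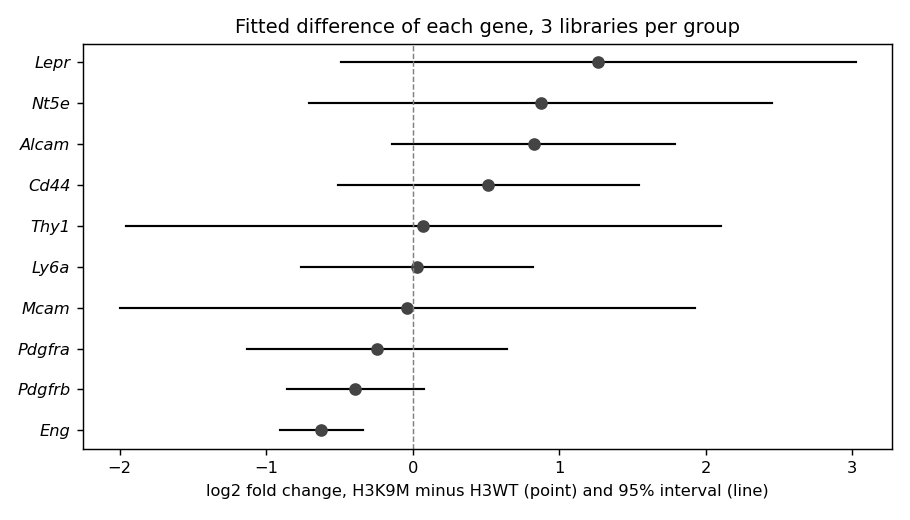
Log2 fold change of each gene, H3K9M minus H3WT (points), with its unadjusted 95% interval (lines), 3 libraries per group, ordered from the highest fitted value at the top. The interval of Eng is the only one of the 10 that leaves out 0, and those of Thy1, Mcam, Lepr and Nt5e each span more than 3 log2 units.

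The sequences just upstream of 2 of these genes are shown: Eng, because it had the smallest p of the 10, and Cd44, because it had the most counts. They are from the RefSeq promoter windows of GRCm38.p6, a build that corresponds to the mm10 named in the submitters' processing notes. Each line gives the 250 bases before the annotated start, 5′ to 3′ on the strand of the gene, with CpG dinucleotides in capitals. That of Eng is chr2:32646345-32646594 on the plus strand and that of Cd44 chr2:102901666-102901915 on the minus strand.
Eng: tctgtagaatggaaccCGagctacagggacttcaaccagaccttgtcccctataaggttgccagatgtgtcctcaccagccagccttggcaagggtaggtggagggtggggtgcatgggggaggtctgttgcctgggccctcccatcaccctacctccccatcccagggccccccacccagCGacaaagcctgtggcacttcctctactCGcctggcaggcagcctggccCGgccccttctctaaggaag
Cd44: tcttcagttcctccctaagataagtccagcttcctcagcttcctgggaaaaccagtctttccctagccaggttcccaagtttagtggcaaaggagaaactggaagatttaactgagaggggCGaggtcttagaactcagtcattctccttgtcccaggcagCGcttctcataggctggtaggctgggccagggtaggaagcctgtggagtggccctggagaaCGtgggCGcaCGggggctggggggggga
These stretches hold 4 and 5 CpG. Over windows of 300 bases that also take in the 50 bases after the start, Eng and Cd44 had 6 CpG each and Pdgfra 5, below the median of 7 over 32851 windows. Mcam had 29, Alcam 25, Nt5e 23 and the first of the 2 Lepr windows 18, and the other Lepr window had 13. GGGCGG, the GC box, or its reverse complement occurred in windows of 5 of the 7 genes considered (Nt5e, Cd44, Mcam, Alcam and Lepr) and in 35.7% of all windows. For Lepr it was in the second window only, so the count by gene is not strictly alike to the share of windows. Searched in the same way, CCAAT occurred in 2 of the 7 genes (37.4% of all windows) and TATAAA in 0 (13.6%). These are descriptions of sequence, and binding or methylation at these windows was not measured here.

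Eng encodes endoglin, a co-receptor for ligands of the TGF-beta family. Its level was 53.9, 51.6 and 50.5 CPM in H3K9M replicates 1, 3 and 5, and 77.5, 88.7 and 74.1 CPM in H3WT replicates 1, 2 and 4. The 3 H3K9M libraries lay close together and all below the lowest H3WT library. The mean of Eng was 52.0 ± 1.77 CPM for H3K9M against 80.1 ± 7.66 CPM for H3WT (SD, n = 3 each), a ratio of 0.649 (95% interval 0.533 to 0.790). The log2 fold change was -0.62 (SE 0.12), and the unadjusted p of 0.000918 ranked 68 among all tested genes. After adjustment the p was 0.180 with edgeR, above the threshold, and 0.00635 with the DESeq2 Wald test, below it. When each of the 6 libraries was left out in turn, the log2 fold change ran from -0.68 to -0.53 and the adjusted p from 0.114 to 0.495. Eng lies at chr2:32646595-32682669 (plus strand, GENCODE M21 on GRCm38). It shares 61 exonic bases, 1.5% of its exonic length, with Fpgs on the opposite strand.

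The genes that act with endoglin were read from a list of 12 ligands, receptors and partners, all tested, of which 0 passed adjustment with edgeR. Of these, 0 were higher and 3 lower at an unadjusted p under 0.05 (6.42% and 5.77% of all tested genes), and the median log2 fold change was -0.38 against -0.003 over all genes. Tgfbr3 encodes betaglycan, the other co-receptor of the same kind as endoglin. It had 80.9, 94.6 and 67.5 CPM in H3K9M and 173, 126 and 124 CPM in H3WT, in the order of replicates above, and its log2 fold change was -0.80, with an SE of 0.18 and an adjusted p of 0.206. Acvrl1, the type I receptor with which endoglin forms complexes in endothelium, had 2.41, 6.28 and 2.60 CPM against 16.0, 6.80 and 16.2 CPM (log2 fold change of -1.78 with an SE of 0.50, and an adjusted p of 0.249). Tgfbr2, the type II receptor for TGF-beta, had 232, 173 and 207 CPM against 295, 246 and 463 CPM (log2 fold change of -0.72 with an SE of 0.24, and an adjusted p of 0.308). For these 3 of the 12 genes (8.68% of all tested genes), as for Eng, every H3K9M library lay below every H3WT library, with a narrow gap for Acvrl1. DESeq2 called Tgfbr3 (adjusted p 0.0121) and Acvrl1 (0.0273) but not Tgfbr2, where 2.83% of all tested genes were called. Tgfbr1, the type I receptor of TGF-beta, had 24.1 ± 1.65 CPM against 24.2 ± 4.60 CPM (SD, n = 3 each, log2 fold change of -0.008 with an SE of 0.19, and an adjusted p of 0.992). The summed level of the endothelial markers was 10.8 to 47.3 CPM in H3K9M and 8.08 to 12.5 CPM in H3WT, most of it from Cd34. Pecam1 had at most 11 counts and Kdr at most 2. The part of these markers, or of the lower fitted values of the chondrocyte markers, in the values of Eng and its partners was not tested.

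**Figure D2:**
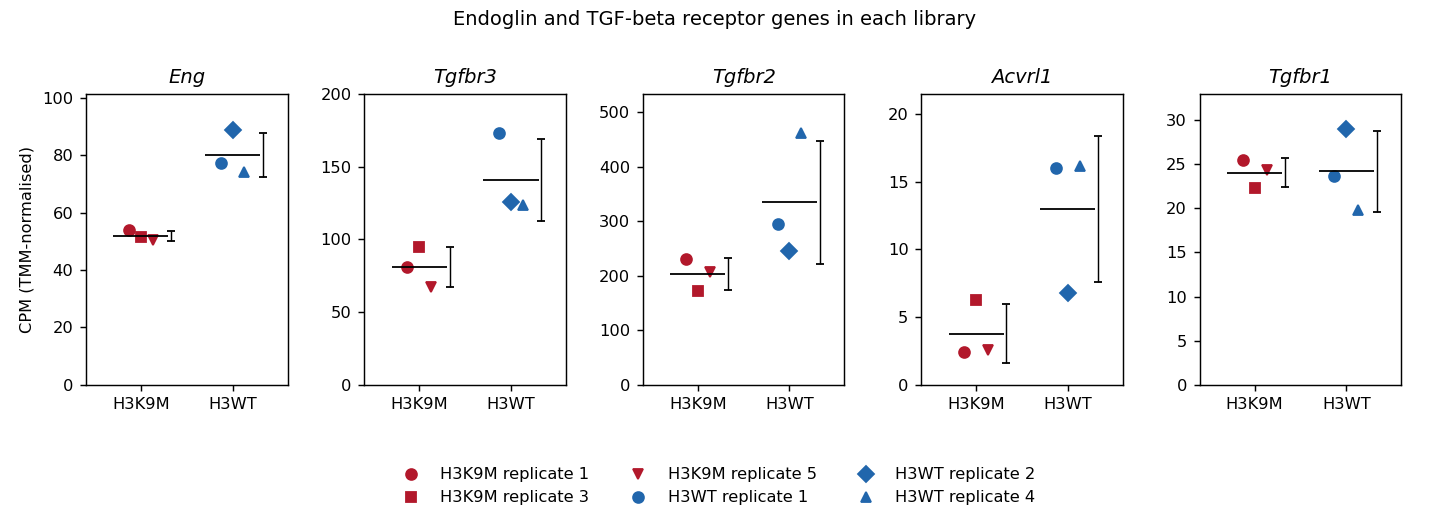
Normalised counts (CPM) of Eng, Tgfbr3, Tgfbr2, Acvrl1 and Tgfbr1 in each library, with a horizontal line at the group mean and a bar of 1 SD to its right (n = 3 each). For the first 4 genes every H3K9M library lies below every H3WT library, with no gene past adjustment in edgeR, and the groups overlap for Tgfbr1.

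Thy1 encodes a small glycoprotein held in the membrane by a lipid anchor and is a widely used marker of fibroblasts and stromal cells. Its level was 265, 96.9 and 166 CPM in H3K9M and 246, 22.6 and 234 CPM in H3WT. H3WT replicate 2 stood far below the other libraries, H3K9M replicate 3 was next, and the groups overlapped. Group values were 176 ± 84.7 CPM and 167 ± 126 CPM (SD, n = 3 each), a ratio of 1.05 with a 95% interval of 0.257 to 4.29 (adjusted p 0.984, edgeR). The sign rested on single libraries, with a log2 fold change of 0.07 over all libraries, -0.44 without H3WT replicate 2 and -0.35 without H3K9M replicate 1. A 2-fold difference in either direction was not detectable at this spread. Thy1 lies at chr9:44043384-44048579, on the plus strand.

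Nt5e, at chr9:88327197-88372092 on the plus strand, encodes the enzyme that turns extracellular AMP into adenosine. It had 113, 236 and 144 CPM in H3K9M and 50.3, 182 and 36.7 CPM in H3WT. H3WT replicate 2 lay among the H3K9M libraries, and the other H3WT libraries lay below all of them. The group values were 164 ± 63.9 CPM and 89.6 ± 80.2 CPM (SD, n = 3 each), a ratio of 1.83 (95% interval 0.613 to 5.48, adjusted p 0.636, edgeR). Without H3WT replicate 2 the log2 fold change went from 0.87 to 1.93 (adjusted p 0.0860, where 0.639% of genes passed), and without H3WT replicate 4 to 0.50. With H3K9M replicate 3 and H3WT replicate 2 both left out, an alternative chosen after seeing the data that leaves 2 libraries a group, it was 1.58 with an adjusted p of 0.0159, where 2.19% of genes passed. It was the one of the 10 genes to pass in that fit. Of 11 tested genes of the extracellular purine pathway around this enzyme, 0 passed adjustment with edgeR. At an unadjusted p under 0.05 there were 1 higher and 0 lower (6.42% and 5.77% of all tested genes). The median log2 fold change was -0.33. The one was Enpp1, which makes AMP and pyrophosphate from ATP, with 114, 203 and 119 CPM in H3K9M against 62.6, 74.4 and 35.5 CPM in H3WT (log2 fold change of 1.34 with an SE of 0.33, and an adjusted p of 0.231 with edgeR and 0.00363 with DESeq2). All 3 H3K9M libraries lay above the H3WT libraries, as in 10.7% of all tested genes, and DESeq2 called 2.83% of all tested genes. Entpd1 (CD39), which acts just upstream of CD73 by making AMP from ATP, was at 2.50 ± 0.528 CPM and 2.54 ± 1.22 CPM. The adenosine receptor genes Adora1, Adora2a and Adora2b had at most 10, 14 and 14 counts, and Adora3 had 0.

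Cd44, at chr2:102811141-102901665 on the minus strand, encodes the main receptor for hyaluronan. It had 511, 988 and 384 CPM in H3K9M and 391, 645 and 281 CPM in H3WT. H3K9M replicate 3 was highest, H3WT replicate 2 next, and the groups overlapped. The means were 628 ± 318 CPM and 439 ± 186 CPM (SD, n = 3 each), a ratio of 1.43 (95% interval 0.702 to 2.91, adjusted p 0.676, edgeR). The log2 fold change of 0.52 was 0.04 without H3K9M replicate 3 and 0.91 without H3WT replicate 2. Among 12 tested genes of hyaluronan turnover and CD44 partners, 0 passed adjustment with edgeR, and the median log2 fold change was -0.04. At an unadjusted p under 0.05, 1 was higher and 1 lower (6.42% and 5.77% of all tested genes). Has2, a hyaluronan synthase, had 15.0, 13.2 and 12.0 CPM against 22.3, 22.5 and 20.7 CPM (log2 fold change of -0.70 with an SE of 0.18, and an adjusted p of 0.236 with edgeR and 0.0494 with DESeq2). Msn, which encodes moesin, a linker of CD44 to actin, had 1028, 1089 and 1042 CPM against 811, 866 and 644 CPM (log2 fold change of 0.44 with an SE of 0.15, and an adjusted p of 0.302 with edgeR, and not called by DESeq2). Both genes, in opposite directions, were among the 3 of 12 whose groups did not overlap. Of these, 1 was higher and 2 lower (10.7% and 8.68% of all tested genes). DESeq2 called 2.83% of all tested genes. Several splice forms of CD44 exist, and gene counts do not tell them apart.

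Mcam and Alcam encode adhesion proteins of the immunoglobulin superfamily. Mcam had 16.7, 1.98 and 13.5 CPM in H3K9M and 15.3, 3.48 and 14.2 CPM in H3WT. H3K9M replicate 3 and H3WT replicate 2 were low and the other 4 libraries lay within 13.5 to 16.7 CPM, so the groups overlapped. The ratio was 0.975 (95% interval 0.250 to 3.80, adjusted p 0.992, edgeR). The log2 fold change of -0.04 turned to 0.47 without H3K9M replicate 3, 0.28 without H3WT replicate 1 and 0.19 without H3WT replicate 4. It was 0.015 with library size alone as the scaling. The 8 pericyte and smooth muscle markers, a lineage Mcam also marks, summed to 249, 137 and 67.1 CPM in H3K9M and 311, 60.0 and 348 CPM in H3WT, with Higd1b at 0 throughout. Des, which skeletal muscle also expresses, made up 81.0, 98.04 and 8.78 CPM of the H3K9M sums. Without Des, a split made after the values were seen, the sums were 168, 39.2 and 58.4 CPM against 306, 53.2 and 346 CPM. Their 2 lowest libraries were those of Mcam, while with Des they were H3K9M replicate 5 and H3WT replicate 2. Cnn1 made up 128 CPM of the sum in H3K9M replicate 1, and 254 and 303 CPM in H3WT replicates 1 and 4. Of the contractile genes, named likewise, Cnn1 had 17.5 CPM in H3K9M replicate 3 and 34.6 CPM in H3WT replicate 2, and 38.5 to 303 CPM in the other libraries. Myh11 (1.30 and 2.44 CPM) and Acta2 (422 and 703 CPM), the latter from the progenitor list, were also lowest in these libraries. So was Abcc9, a pericyte marker with at most 51 counts in any library (0.145 and 0 CPM). Rgs5 and Notch3, of the pericyte list, were not. Rgs5 had 12.7 and 12.6 CPM in these libraries and 4.94 to 15.5 CPM in the others. Notch3 had 7.49 and 3.58 CPM, and 2.35 to 16.3 CPM in the others. The part of these markers in the Mcam values was not tested.

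Mcam, at chr9:44134469-44142727, is on the same strand as Thy1, with 85889 bases between them. The low libraries were the same for both, though H3WT replicate 2 was the lower for Thy1 and H3K9M replicate 3 for Mcam. Of 9 genes annotated in between, 5 were tested, and 2 of these 5, Mfrp and C1qtnf5, also had those libraries as their 2 lowest, against 10.5% of all tested genes. These 2 share 1 set of counts, 37.98, 20.5 and 27.7 CPM in H3K9M and 42.1, 11.4 and 38.4 CPM in H3WT, and so are 1 measurement. Rnf26 and Usp2, also in between, did not have both libraries lowest, with 55.0 and 7.92 CPM in H3K9M replicate 3 and 87.6 and 3.84 CPM in H3WT replicate 2. These genes were looked up after the pattern had been seen.

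Alcam (chr16:52248996-52454074, minus strand) had 46.4, 23.1 and 70.4 CPM in H3K9M and 33.3, 27.8 and 17.8 CPM in H3WT. H3K9M replicates 5 and 1 were highest, while H3K9M replicate 3 lay within the H3WT range. The means were 46.6 ± 23.6 CPM and 26.3 ± 7.83 CPM (SD, n = 3 each), a ratio of 1.77 (95% interval 0.906 to 3.46, adjusted p 0.463, edgeR). With single libraries left out the log2 fold change ran from 0.41, without H3K9M replicate 5, to 1.16. Skeletal muscle markers also differed between the libraries. The 10 genes summed to 93.9, 155 and 20.6 CPM in H3K9M and 29.4, 6.38 and 27.2 CPM in H3WT. Myf5 and Pax7 were at 0 in every library. Acta1, the most abundant on average, held 26.2 and 24.0 CPM of the sums in H3WT replicates 1 and 4. All 5 tested genes had higher fitted values in H3K9M (49.6% of all tested genes), with a median log2 fold change of 2.91. At an unadjusted p under 0.05, 3 were higher (6.42% of all tested genes), and 0 passed adjustment with edgeR. The groups did not overlap for 3, with H3K9M higher (10.7% of all tested genes). Myod1, singled out after its values were seen, had 19.5, 57.0 and 4.29 CPM in H3K9M and 0, 1.04 and 0 CPM in H3WT. Their part in the differences of the surface markers was not tested.

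Ly6a, at chr15:74994877-74998031 on the minus strand, encodes Sca1, a short protein of the Ly6 family with a lipid anchor. It had 102, 208 and 149 CPM in H3K9M and 129.6, 216 and 105 CPM in H3WT. The highest library of each group was again H3K9M replicate 3 and H3WT replicate 2, and the groups overlapped almost fully. The ratio was 1.02 (95% interval 0.588 to 1.76, adjusted p 0.984, edgeR), and the log2 fold change of 0.03 was -0.25, -0.07 and -0.17 without H3K9M replicate 3, H3WT replicate 1 and H3WT replicate 4. Transcripts of Ly6a match those of Ly6c1 (96.6% identity over 263 bases), Ly6c2 (94.3% over 245) and Ly6i (92.6% over 336), so the count is uncertain where reads fall in those stretches. Ly6c1 had 78.1, 163 and 128 CPM in H3K9M and 39.1, 148 and 43.0 CPM in H3WT (log2 fold change of 0.68 with an SE of 0.58, and an adjusted p of 0.690). Of 9 tested genes of the Ly6 family beside Ly6a, 0 passed adjustment with edgeR. At an unadjusted p under 0.05 there were 1 higher and 1 lower (6.42% and 5.77% of all tested genes). The median log2 fold change was -0.17. Lynx1, a modulator of nicotinic receptors, averaged 65.4 CPM in H3K9M against 90.5 CPM (log2 fold change of -0.47 with an SE of 0.12, and an adjusted p of 0.239), and Cd59a, an inhibitor of complement, had 13.1 and 5.07 CPM (log2 fold change of 1.37 with an SE of 0.57, and an adjusted p of 0.396). The groups of both genes did not overlap, which held for 10.7% of all tested genes with H3K9M higher and 8.68% with it lower.

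Pdgfra and Pdgfrb encode the receptor tyrosine kinases of platelet-derived growth factors, of which the alpha form marks mesenchymal progenitors and the beta form mural and stromal cells. Pdgfra (chr5:75152292-75198215, plus strand) had 89.6, 236 and 144 CPM in H3K9M and 182, 243 and 132 CPM in H3WT. Pdgfrb had 281, 218 and 256 CPM in H3K9M and 402, 236 and 352 CPM in H3WT. H3K9M replicate 3 and H3WT replicate 2 were the 2 highest libraries for Pdgfra and the 2 lowest for Pdgfrb. The ratio of H3K9M to H3WT was 0.844 for Pdgfra (95% interval 0.456 to 1.56, adjusted p 0.846, edgeR) and 0.763 for Pdgfrb (95% interval 0.551 to 1.06, adjusted p 0.473). The log2 fold change of Pdgfra was -0.25, and it was 0.04 without H3K9M replicate 1 and 0.006 without H3WT replicate 2. That of Pdgfrb was -0.39 and reached -0.57 when H3WT replicate 2 was left out and -0.23 when H3WT replicate 1 was. Pdgfra shares 456 exonic bases (4.5%) with the antisense gene Gm42802, and the strand setting of the counting is not stated.

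Within each library, the balance of the receptors was taken as log2 Pdgfra minus log2 Pdgfrb, which needs no scaling between libraries. It was -1.65, 0.12 and -0.83 in H3K9M and -1.14, 0.04 and -1.42 in H3WT. Only in H3K9M replicate 3 and H3WT replicate 2 did the count of Pdgfra reach that of Pdgfrb. The group means were -0.79 ± 0.88 and -0.84 ± 0.77 (SD, n = 3 each), a difference of 0.05 (exact two-sided permutation test, p = 0.9, with 0.1 the smallest p that 3 against 3 allows). The difference was -0.40 without H3K9M replicate 3, -0.10 without H3WT replicate 1 and -0.24 without H3WT replicate 4. Of 10 tested genes of PDGF ligands and receptor signalling, 0 passed adjustment with edgeR, and the median log2 fold change was -0.02. At an unadjusted p under 0.05, 1 was higher and 1 lower (6.42% and 5.77% of all tested genes). Pdgfc, a ligand of Pdgfra, averaged 54.6 ± 13.7 CPM in H3K9M against 38.9 ± 5.2 CPM (SD, n = 3 each, log2 fold change of 0.49 with an SE of 0.21, and an adjusted p of 0.399). Pik3r1, the regulatory subunit of phosphoinositide 3-kinase, had 43.5 and 76.0 CPM (log2 fold change of -0.81 with an SE of 0.29, and an adjusted p of 0.346). The values of the groups overlapped for both. Over the 10 genes of this list, 0 had all H3K9M libraries above H3WT and 2 had all below (10.7% and 8.68% of all tested genes).

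Lepr, at chr4:101717404-101815352 on the plus strand, encodes the leptin receptor. It had 15.1, 42.2 and 4.95 CPM in H3K9M and 7.92, 12.3 and 5.60 CPM in H3WT. One library, H3K9M replicate 3, was far above the rest, and H3K9M replicate 5 was the lowest of all 6. The ratio of 2.41 was the farthest from 1 among the 10 genes, with a 95% interval of 0.713 to 8.13 (adjusted p 0.527, edgeR). Without H3K9M replicate 3 the log2 fold change went from 1.27 to 0.22. Transcripts of Lepr match those of Gm12797 (97.4% identity over 273 bases). They also match Selplg, Snrnp70, Zfp410, Fam173b and B130034C11Rik, at 90.2% to 90.6% over 202 to 214 bases. The count is uncertain where reads fall in those stretches. Of 7 tested genes of leptin receptor signalling 0 passed adjustment with edgeR, with a median log2 fold change of -0.12. At an unadjusted p under 0.05, 0 were higher and 1 lower (6.42% and 5.77% of all tested genes). Jak2, the kinase bound to the receptor, averaged 39.1 CPM in H3K9M against 48.5 CPM (log2 fold change of -0.31 with an SE of 0.13, and an adjusted p of 0.408). Its groups did not overlap, with H3K9M lower, as in 8.68% of all tested genes. Lep, the gene of the ligand, had 0 counts.

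**Figure D3:**
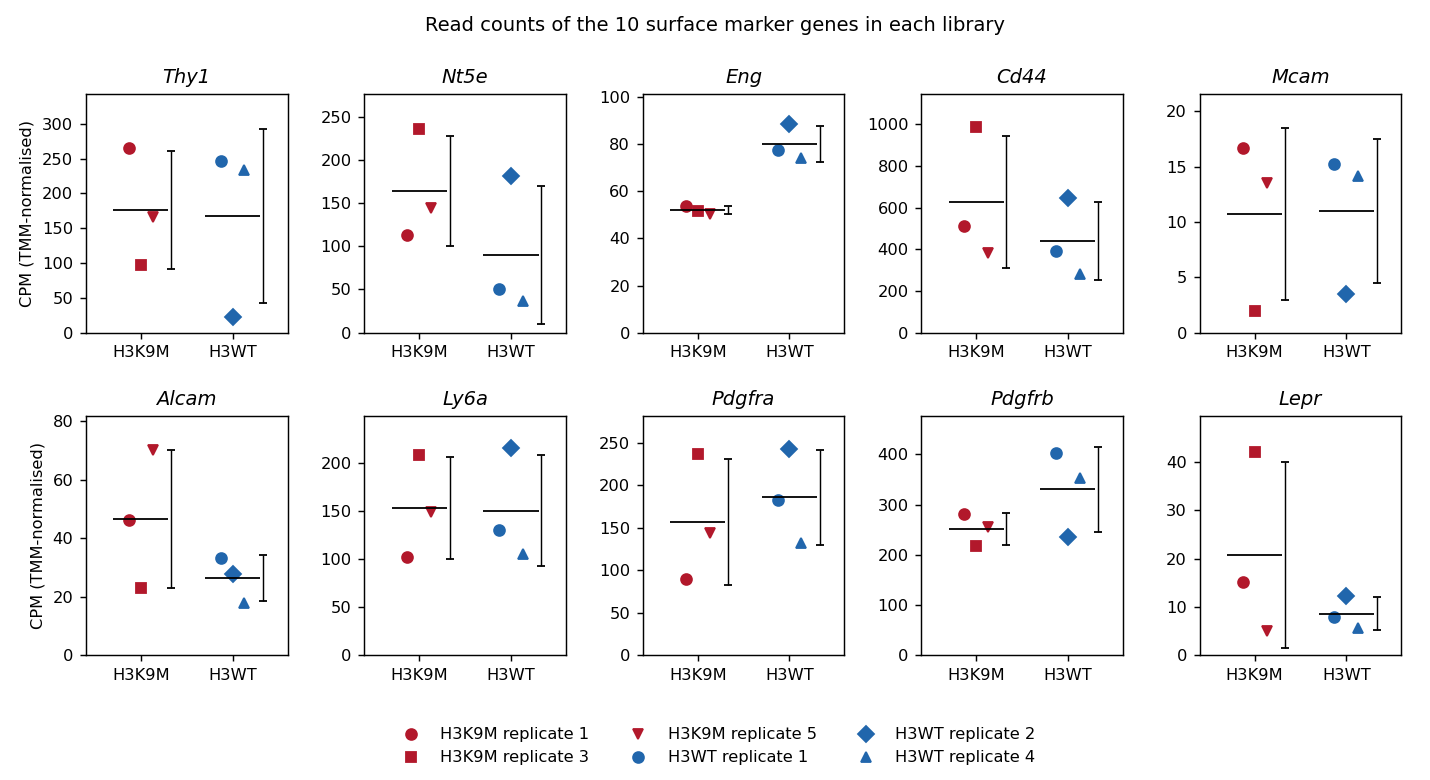
Normalised counts (CPM, linear axes from 0) of the 10 genes in each library, with a horizontal line at the group mean and a bar of 1 SD to its right (n = 3 each). Eng alone has groups that do not overlap, and the square (H3K9M replicate 3) and the diamond (H3WT replicate 2) lie on the same side of their group in Thy1, Nt5e, Cd44, Mcam, Ly6a, Pdgfra, Pdgfrb and Lepr.

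The spread of most of these genes between libraries was wider than that of most genes. The range from the lowest to the highest library, on the log2 CPM scale, was 3.55 for Thy1, 3.06 for Lepr, 3.005 for Mcam and 2.68 for Nt5e, against a median of 0.85 over all tested genes. Eng, at 0.81, and Pdgfrb, at 0.88, lay near that median, at percentiles 47.5 and 51.4. In 7 of the 10 genes, H3K9M replicate 3 and H3WT replicate 2 were the 2 extreme libraries on one side, against 20.0% of all tested genes. Both were the 2 highest for Nt5e, Cd44, Ly6a and Pdgfra (9.46% of all tested genes) and the 2 lowest for Thy1, Mcam and Pdgfrb (10.5%). These are the 2 libraries at one end of the first principal component, and 1 belongs to each group. The pattern was noticed in the data and is given as a description. In H3K9M replicate 3 and H3WT replicate 2, the chondrocyte markers summed to 6829 and 16855 CPM, not both at one extreme. Col2a1 alone held 5521 and 14110 CPM of these sums. The pericyte and smooth muscle markers summed to 137 and 60.0 CPM with Des, which are not the 2 lowest values. Without Des they summed to the 2 lowest values of the 6 libraries (39.2 and 53.2 CPM), of which Cnn1 held 17.5 and 34.6 CPM. The part of these markers in the pattern was not tested.

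**Figure D4:**
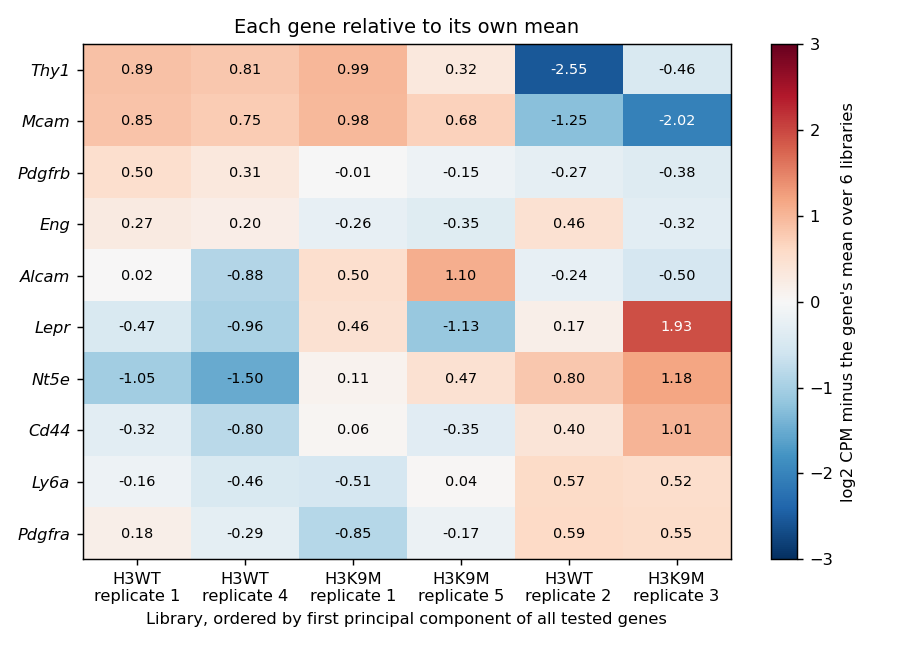
Each gene's log2 CPM minus its own mean over the 6 libraries, red above and blue below the mean, with libraries ordered along the first principal component of all tested genes. Thy1 and Mcam are lowest in the right-hand libraries (H3WT replicate 2 and H3K9M replicate 3), where Nt5e, Cd44, Ly6a and Pdgfra are highest, while Eng separates by group.

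Genes with the most similar profile over the 6 libraries were found for 2 of the 10, by the root mean square difference of mean-centred log2 CPM, among tested genes with a mean log2 CPM of at least 3. For Eng these were 9130221H12Rik (0.056), Gpaa1 (0.068) and Mast3 (0.075), where the median over 9776 genes was 0.398. Since that measure favours genes of small spread, these values are descriptive. For Thy1, with the widest range, they were Tnmd (0.328), Col4a2 (0.429) and Col4a1 (0.435), against a median of 1.26. Tnmd had 1.30 CPM in H3WT replicate 2 and 10.6 to 21.0 CPM in the other libraries. Col4a1 and Col4a2, the chains of basement membrane collagen, had 85.9 and 95.004 CPM in that library, and H3K9M replicate 3 was next lowest for both, as it was for Thy1.

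To compare levels between genes, CPM were divided by the exonic length of the gene in GENCODE M21, which gives RPKM. That length joins the exons of all annotated transcripts, whichever of them are expressed. Over the 6 libraries, the mean was 125.8 RPKM for Ly6a, 78.7 for Cd44, 57.3 for Thy1 and 53.1 for Pdgfrb. Pdgfra (17.1), Eng (16.3) and Nt5e (14.8) followed, then Alcam (5.12), Mcam (3.24) and Lepr (2.08). Ly6a stood at percentile 97.7 of the tested genes by this measure and Lepr at percentile 26.3. The one gap in this order was between Pdgfrb, at 39.8 to 73.4 RPKM, and Pdgfra, at 8.94 to 24.2 RPKM. The ranges of all other neighbours overlapped. Ly6a nevertheless exceeded Cd44 in 6 of 6 libraries, and Nt5e exceeded Alcam in 6 of 6. Cd44 exceeded Thy1 in 3 of 6. The gap between Pdgfrb and Pdgfra depends on the lengths used, 5478 and 10024 bases. In CPM their ranges, 218 to 402 and 89.6 to 243, overlapped.

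**Figure D5:**
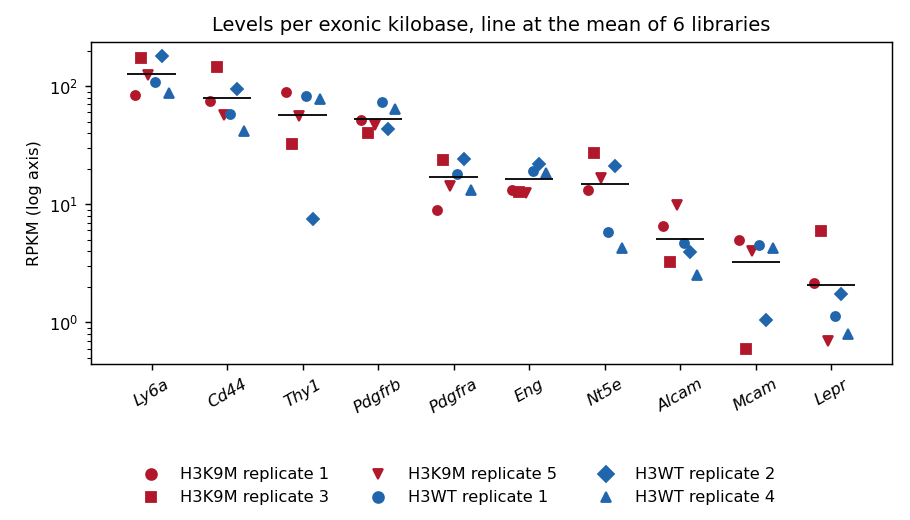
RPKM (CPM per exonic kilobase, log axis) of the 10 genes in each library, ordered by the mean over 6 libraries (line). The first 4 genes lie above the fifth, Pdgfra, apart from Thy1 in H3WT replicate 2 (7.54 RPKM), Mcam is lowest in H3K9M replicate 3 (0.591 RPKM), and Lepr is highest there (5.98 RPKM).

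Other markers of skeletal and mesenchymal progenitors were read from a list of 29 genes, of which 26 were tested. With edgeR 0 passed adjustment, and the median log2 fold change was -0.06. At an unadjusted p under 0.05 there were 2 higher and 1 lower (6.42% and 5.77% of all tested genes). Cd63, a tetraspanin, averaged 341 ± 37 CPM in H3K9M against 244 ± 12.1 CPM (SD, n = 3 each, log2 fold change of 0.48 with an SE of 0.13, and an adjusted p of 0.236). Nes, an intermediate filament gene of stromal and neural progenitors, had 93.1, 130 and 76.6 CPM against 49.9, 67.6 and 31.3 CPM (log2 fold change of 1.01 with an SE of 0.30, and an adjusted p of 0.280). Grem1, an antagonist of BMP that marks skeletal progenitors, had 29.4, 74.0 and 34.4 CPM against 82.1, 131 and 91.6 CPM (log2 fold change of -1.14 with an SE of 0.37, and an adjusted p of 0.312). All 3 were among the genes whose groups did not overlap, 4 higher and 2 lower of the 26 (10.7% and 8.68% of all tested genes). DESeq2, which called 2.83% of all tested genes, called all 3. Of the genes used to sort growth plate stem cells, Itgav averaged 338 CPM in H3K9M against 309 CPM, while Cd200 had 0.923 and 1.36 CPM and Enpep, the gene of the 6C3 antigen, 0.306 and 1.11 CPM. None of these 3 passed the test (adjusted p 0.773, 0.829 and 0.683).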

How the data were processed

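The labels describe polyadenylated RNA libraries of 6 cultures prepared with a Tecan Universal Plus kit. The deposited table holds raw counts of reads by gene symbol, with a column for each library, not normalized by the authors, judging from whole numbers with unequal totals. The submitters' processing notes name HISAT2, featureCounts and DESeq2 and the build mm10. Versions, annotation, strand setting and treatment of shared reads are not given in the sources used here. The table held 0 columns of other samples.

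Counts were fitted in R 4.3.3 with edgeR 4.0.16 (filterByExpr, TMM, robust glmQLFit and glmQLFTest, genotype as the only term, 6 libraries). P-values were adjusted by Benjamini-Hochberg over 13761 genes. SE is the log2 fold change divided by the square root of F. Log2 CPM carried a prior count of 2. The fit was tested on simulated data. Alternatives used DESeq2 1.42.0 and limma 3.58.1 (voom), other scalings and filters, no robust estimation, and each library left out. Gene models are GENCODE M21, and similar transcripts (at least 90% identity over 200 bases) came from blastn 2.17.0. Of the 10 genes, 7 were described from the RefSeq promoter table. Thy1 and Ly6a had no entry in it, and Pdgfrb was left out of that description.

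The 10 genes and all gene lists were chosen with earlier results of these data known. The text names all 10, from each list of partners or progenitor markers at most 3 genes with the smallest unadjusted p under 0.05, and the 3 genes most like Eng (smallest p) and Thy1 (widest range). Others named, such as Tgfbr1, Entpd1, Ly6c1, Itgav and Pecam1, were picked for their known roles after values were seen. Markers of Schwann and neural cells (Sox10 at 0; summed level 94.998 to 144 CPM in H3K9M and 66.2 to 99.3 CPM in H3WT), epithelium (Krt5 at 0; 4.85 to 25.2 and 1.30 to 5.55 CPM), adipocytes (none of 6 at 0; 42.6 to 60.3 and 54.1 to 90.8 CPM) and blood (10.6 to 21.9 and 5.13 to 13.3 CPM) were summed in the same way as those in the text.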

Additional observations from a re-analysis of the deposited data

How the results depend on the processing

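Of the 10 genes, 6 kept their sign under 14 alternatives, 13 of them planned, and 4 did not. No gene of the 10 passed with library size alone, the size factors of DESeq2, either other filter, limma-voom, no robust estimation or any single library left out. The DESeq2 Wald test called 390 genes in all (2.83% of those tested), 1 of the 10 (Eng) and 10 of 120 in the other lists. Testing all genes with a count gave 36 of 19994, 0 of the 10 and 1 of 155 in the other lists (Mbp). With H3K9M replicate 3 and H3WT replicate 2 left out together, a setting added after the data were seen, 302 genes passed (2.19% of those tested). Of the 10 there was 1 (Nt5e), and of the 124 in the other lists there were 12. The log2 fold changes of Thy1 and Mcam turned to -0.14 and 0.046 in that fit. That of Mcam was 0.015 with library size alone. The cause was not tested.

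Across fits that each left out 1 library, the count over all genes ran from 0 to 91 (0.639% of those tested), the latter without H3WT replicate 2. The count over the other lists ran from 0 to 1 (Mbp, of 127 tested, without H3WT replicate 2). The log2 fold change ran from -0.44 to 0.46 for Thy1, -0.50 to 0.47 for Mcam, -0.25 to 0.39 for Ly6a and -0.66 to 0.036 for Pdgfra, and the PDGF receptor difference from -0.40 to 0.49. Without H3K9M replicate 3, 2 genes passed, neither in these lists. No paired analysis was possible because the groups share only replicate number 1. Every one of the 10 genes had 41 or more counts in every library, and the intervals are those of the spread between libraries.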
